A study of Arabidopsis halleri and Arabidopsis lyrata subsp. petraea with 24 samples.

Results

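The cytochrome P450 genes described here were all genes whose ATH1 probe set carried a single gene symbol made of CYP, a family number, letters and a gene number, with CYP71B26 left out. They numbered 21, each with 1 probe set, of 22810 probe sets on the array and 13513 with 1 gene symbol. Of the 21 genes, 17 belonged to family CYP71, all of them in subfamily CYP71B, and the other families were CYP51, CYP78, CYP79 and CYP84 with 1 gene each. Another 503 probe sets carried several symbols and 8794 carried none in the table used, so most P450 genes of the plant are outside this set. Of 88 P450 and partner genes sought by name in 18 lists by role, only CYP78A9 and CYP84A4 were found. None of the 12 redox partner genes sought was among them.

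Total RNA had been hybridised to 24 Affymetrix ATH1 arrays, whose probes were designed on Arabidopsis thaliana, and the series asks about zinc tolerance and accumulation in A. halleri. The arrays are labelled as 8 groups of 3: A. halleri, a zinc-tolerant species, or its relative A. lyrata subsp. petraea, called A. petraea from here on, whole root system or rosette leaves, control or high Zn. All plants grew in a growth room on full mineral medium. The sources used here do not give the amount of zinc added, and no transgene or mutant is named. Whether arrays of 1 group hold RNA of different plants is not stated either, so the p-values below rest on a spread between arrays that may be technical. The array labelled A. halleri control roots 1 is labelled stage 1.1 and the other 23 are labelled as plants with 10-16 rosette leaves.

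Cytochrome P450 enzymes are haem monooxygenases, most of them anchored in the endoplasmic reticulum and fed with electrons by NADPH-cytochrome P450 reductase. In plants they make and break down hormones, sterols, phenylpropanoids, waxes and defence compounds such as glucosinolates and camalexin. The CYP71B subfamily is large in A. thaliana, many of its genes lie next to each other, and most have no known substrate. CYP71B6 acts on indole-3-acetonitrile in A. thaliana. CYP51G2 is a paralogue of the sterol 14-demethylase CYP51G1, CYP78A9 promotes fruit and seed growth, CYP79A2 makes phenylacetaldoxime from phenylalanine, and CYP84A4 takes part in arabidopyrone synthesis, all in A. thaliana.

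The arrays were grouped in 2 ways, because the organ markers did not follow the labels. The first way took the labels as printed. The second is an inference, not a label: the serial numbers in the array titles were sorted as text (1, 10, 11 and so on), and each array in turn took the group and number printed for serial 1, 2, 3 and so on up to 24. This text order was put forward with values of these arrays already known, and every result given in it holds only as far as the inference does. Under both groupings 1 array kept its group, 8 kept their organ, 10 their species and 8 their zinc level.

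Organ was checked with 4 leaf markers (the Calvin cycle genes RCA, PRK and SBPASE and the photosystem I gene PSAE-1) and 3 root markers (PYK10, EXPA7 and EXPA18). The organ with the higher marker mean was the printed organ on 9 of 24 arrays and the text-order organ on 23 of 24. In text order the leaf minus root difference of the log2 marker means was 3.24 to 5.83 on the 12 leaf arrays. It was below 0, at -3.89 to -0.1, on 11 of the 12 root arrays. Of these, A. halleri high Zn roots 3 (-0.1), A. petraea control roots 3 (-0.39) and A. halleri control roots 3 (-0.9) lay nearest to 0. The remaining root array was text-order A. petraea high Zn roots 2, labelled A. petraea high Zn leaves 3, with a difference of 3.43. This array correlated best, at r = 0.924, with text-order A. petraea control leaves 2. Some of the results that use it are also given without it. The most correlated array shared species and organ for 5 arrays as printed and for 22 in text order.

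The P450 genes lay between percentiles 1.4 and 93.5 of the mean signals of all probe sets, as the map of signals by array shows. CYP71B23 had the highest mean MAS5 signal over the 24 arrays, 382.6, which put it at percentile 93.5 of all probe sets, and CYP71B22 followed with 313.3 at percentile 91.5. CYP71B6, with 130.5, and CYP71B28, with 115.8, came next. A further 8 genes had means from 27.9 to 81.7: CYP71B35, CYP71B27, CYP51G2, CYP78A9, CYP71B24, CYP71B34, CYP71B37 and CYP71B38.

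These 12 genes passed the filter, a mean above 26.2, under which the lowest 25% of probe sets were left out. The other 9 did not: CYP71B25, CYP71B29, CYP71B5, CYP71B36, CYP84A4, CYP71B16, CYP79A2, CYP71B21 and CYP71B31, with means from 20 down to 2.5. CYP71B31 was the dimmest, with no array above 9.1. CYP84A4 lay between 1 and 24.8. For genes this dim, a low signal may be background or a probe that does not match the transcript of these species, and these cannot be told apart here.

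**Figure D1:**
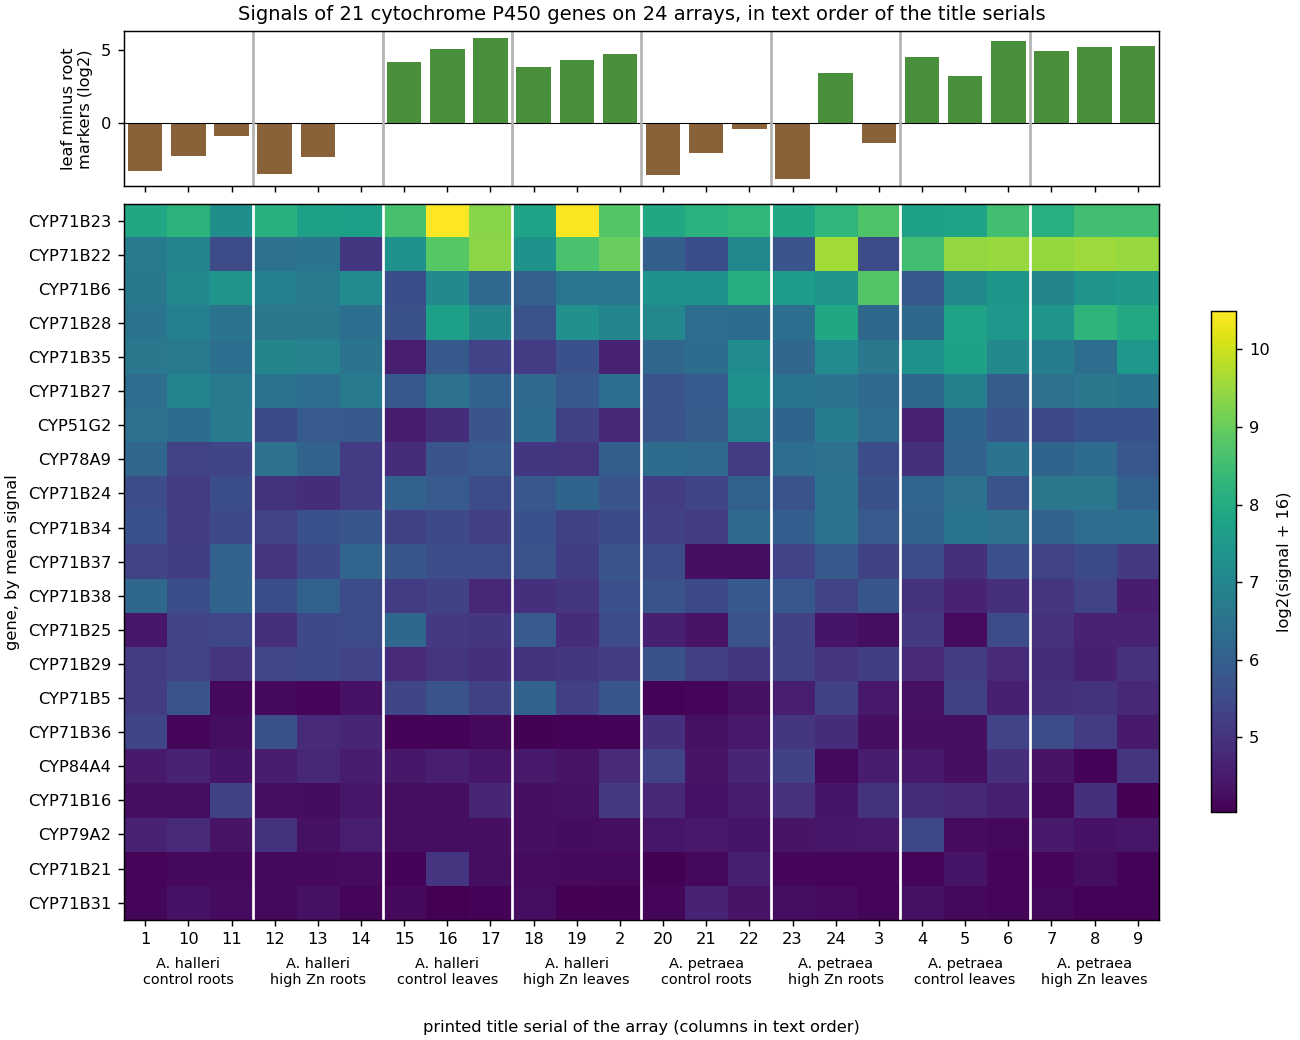
Upper panel: difference between the mean of 4 leaf markers and the mean of 3 root markers on each array, in log2 units. Lower panel: log2(signal + 16) of the 21 genes, ordered by mean signal, with the arrays along the horizontal axis in text order and named by the printed serial of their title. The array with printed serial 24 stands among the root arrays with leaf markers above root markers, and CYP71B22 is bright on it as on the leaf arrays.

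In text order, the organs of A. halleri differed in 6 of the 12 P450 genes tested, with 3 higher in leaves and 3 higher in roots. CYP71B22, CYP71B23 and CYP71B24 were higher in leaves, and CYP71B35, CYP51G2 and CYP71B38 were higher in roots. Of all 17107 probe sets tested, 38.3% were called for the same comparison, 25.8% as higher in roots and 12.5% as higher in leaves, at an adjusted p under 0.05 in a limma fit on log2(signal + 16). Roots were the higher side in 67.3% of those calls and, with quantile normalization between arrays, in 54% of calls. The median difference of the 21 genes, tested or not, was 0.10, roots minus leaves, beside 0.23 over all probe sets. Over the probe sets tested it was 0.28, and 0.12 with quantile normalization. The arrays are bulk tissue, so fewer cells of a type and less RNA per cell cannot be told apart.

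CYP71B22 had the widest gap between organs in A. halleri. Its signals in the 3 control root arrays were 87.5, 105.7 and 30.2, and in the high Zn root arrays 71.6, 75.8 and 17.7. In leaves they were 146.4, 434.1 and 645.8 in controls and 144.5, 382.1 and 493.1 at high Zn. Every A. halleri leaf array lay above every A. halleri root array. The difference, roots minus leaves, was -2.21 ± 0.56 (SE, 6 arrays a side, adjusted p = 0.00423). Here and below, control and high Zn arrays of the same number were counted as independent. Their deviations from the group means correlated at 0.20 to 0.61 in A. halleri roots and 0.65 to 0.81 in its leaves. Standard errors and p-values of organ and species differences may therefore be too small, and those of zinc responses too large.

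CYP71B23, the brightest of the P450 genes, was also higher in A. halleri leaves, but unevenly. Its leaf signals were 374.5, 1426.9 and 633.9 in controls and 204.5, 1388.6 and 422.0 at high Zn, against 137.8 to 279.3 with a median of 208.15 in roots. Only the number 1 array at high Zn fell among the root arrays. The difference was -1.42 ± 0.36 (adjusted p = 0.00467). CYP71B24 had leaf signals of 29.5 to 53 (median 41.65) and root signals of 13.6 to 32.2 (median 19.75), with a difference of -0.63 ± 0.21 (adjusted p = 0.0221). One control leaf array lay among the root arrays.

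CYP71B35 went the other way in A. halleri. Root signals were 83.3, 86.3 and 68.2 in controls and 109.8, 103.0 and 76.2 at high Zn. Leaf signals were 7.9, 41.8 and 24.7 in controls and 20.5, 34.3 and 9.7 at high Zn. The organs did not overlap here or for CYP71B22, as for 21.2% of all probe sets tested, and the difference was 1.47 ± 0.26 (adjusted p = 0.000201). The size of a difference between dim signals depends on the pseudocount, and this one was 2.08 with a pseudocount of 1 and 0.81 with 64, called with each.

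CYP71B38 had a median signal of 41.15 in A. halleri roots (30.5 to 57.2) and of 18.6 in leaves (11.4 to 33.3), a difference of 0.70 ± 0.20 (adjusted p = 0.0101). CYP51G2, the sterol demethylase paralogue, had a median of 53.1 in roots (28.5 to 88.9) and of 18.6 in leaves (7 to 62.5), a difference of 0.86 ± 0.29 (adjusted p = 0.0265). Both genes had overlapping organs. With quantile normalization neither was called, CYP71B38 at 0.49 (adjusted p = 0.0692) and CYP51G2 at 0.61 (adjusted p = 0.103). Both CYP51G2 and CYP71B24 lay near the threshold. CYP51G2 lost its call when any one of 7 of the 24 arrays was left out, with a difference of 0.69 to 0.83 and an adjusted p of 0.0506 to 0.0788. CYP71B24 lost it when any one of 3 was left out, with a difference of -0.58 to -0.57 and an adjusted p of 0.0535 to 0.057. For CYP51G2 these were A. halleri control leaves 1 and 2, control roots 3, high Zn leaves 2 and 3 and high Zn roots 2 and 3, and for CYP71B24 control leaves 1, control roots 2 and high Zn leaves 2.

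The other 6 tested genes were not called between the organs of A. halleri. Of these, CYP71B6 had the largest difference, 0.62 ± 0.30 (adjusted p = 0.114, and 0.0375 in a fit with the text-order number as a replicate block), and CYP71B37 the smallest, -0.03 ± 0.25 (adjusted p = 0.935). The replicate block gives each number a shift shared by all species and organs and does not model the pairs within a species and organ. Its standard errors for organ and species differences may therefore be too small as well. CYP78A9 had a median signal of 39.1 in roots and 27.65 in leaves, with ranges that overlapped and a difference of 0.34 ± 0.32 (adjusted p = 0.415). Among the 9 dimmer genes, testing without the filter called CYP71B5 as higher in leaves, -0.96 ± 0.23 (adjusted p = 0.00366), and CYP71B36 as higher in roots, 0.73 ± 0.24 (adjusted p = 0.0263), beside 31.8% of all 22810 probe sets. CYP71B36 had signals of only 0.8 to 2 in the A. halleri leaf arrays and of 1.6 to 33.6 in the root arrays.

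**Figure D2:**
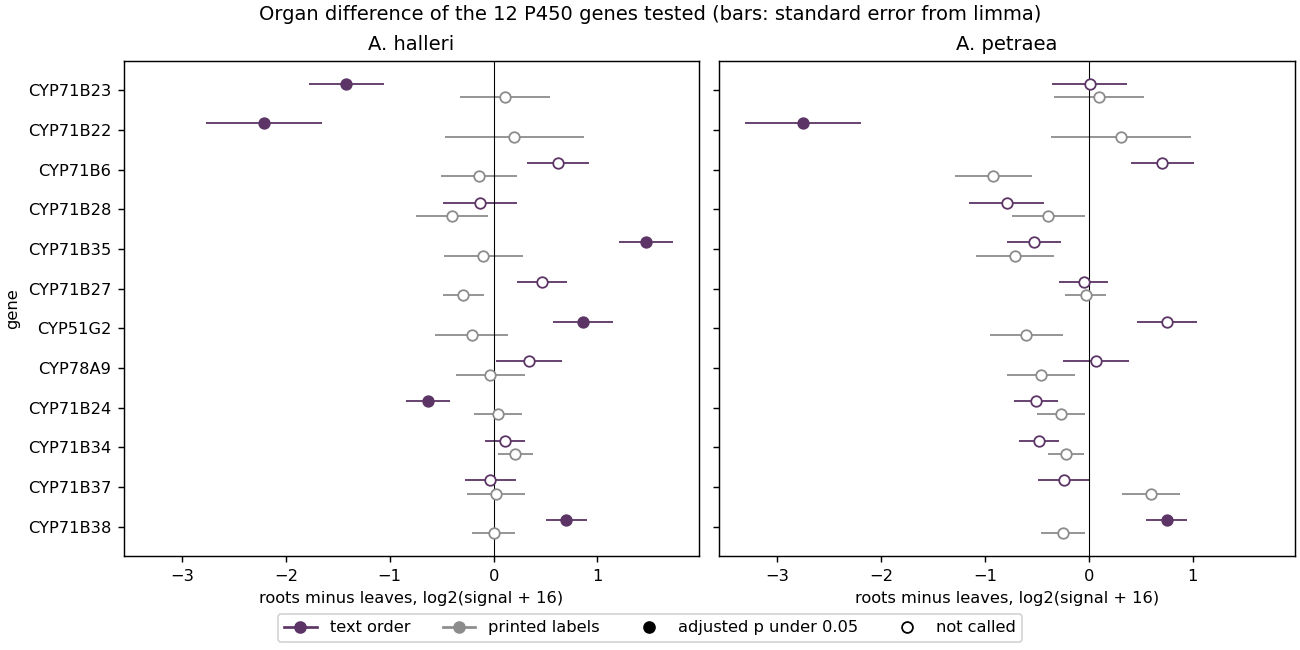
Roots minus leaves on the log2(signal + 16) scale for the 12 P450 genes tested, in A. halleri (left) and A. petraea (right), with bars of 1 standard error from limma. Filled points passed an adjusted p of 0.05; in text order (purple) 6 genes did so in A. halleri and 2 in A. petraea, and with the printed labels (grey) none did.

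In A. petraea, text order called 2 of the 12 genes between organs, CYP71B22 as higher in leaves and CYP71B38 as higher in roots, beside 21.7% of all probe sets (9.49% higher in leaves and 12.3% higher in roots). Both had the same direction as in A. halleri. CYP71B22 had leaf signals of 350.7, 676.6 and 702.5 in controls and 699.1, 729.2 and 705.3 at high Zn. Its root signals were 48.0, 31.9 and 117.2 in controls and 37.2, 758.3 and 29.3 at high Zn. The 758.3 came from the root array with leaf markers, and the other 5 root arrays lay far below all leaf arrays. The difference was -2.75 ± 0.56 (adjusted p = 0.00134), and -3.41 ± 0.41 (adjusted p = 2.99e-06) without that array.

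CYP71B38 had signals of 24.8 to 42.7 in A. petraea roots (median 37.75) and of 7.3 to 24.1 in leaves (median 14.75), and the organs did not overlap, as for 3.84% of all probe sets tested. The difference was 0.75 ± 0.20 (adjusted p = 0.0112), and 0.83 ± 0.22 (adjusted p = 0.00791) without the root array with leaf markers. Without the root array with leaf markers, 5 of 12 genes were called, beside 24.7% of all probe sets. The 3 added genes were higher in leaves: CYP71B24 at -0.65 ± 0.21 (adjusted p = 0.0282), CYP71B28 at -1.06 ± 0.35 (adjusted p = 0.0332) and CYP71B34 at -0.58 ± 0.20 (adjusted p = 0.0425). CYP71B28 had leaf signals of 56.9 to 285.5 with a median of 181.75. With this array left out, CYP71B22 and CYP71B24 were called as higher in leaves, and CYP71B38 as higher in roots, in both species. The A. halleri call of CYP71B38 was lost with quantile normalization of all arrays.

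CYP71B35 and CYP71B23 were called between organs in A. halleri and not in A. petraea. For CYP71B35 the test of that difference passed: roots minus leaves was 1.47 in A. halleri and -0.53 ± 0.26 in A. petraea, and the 2 differed by 1.99 ± 0.37 (adjusted p = 0.00999). It was the only P450 gene of 12 called in that test, beside 0.567% of all probe sets, and it was also called without the root array with leaf markers, where 0.883% were. Its 6 A. petraea leaf signals were 66.4 to 197.7 with a median of 131.35, and those in A. petraea roots 55.4 to 128.6 with a median of 72.8. The A. halleri leaf arrays were thus the low ones, all at 41.8 or less, and each of the other 3 sets of 6 arrays lay above them.

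For CYP71B23 the corresponding test did not pass (difference of -1.44, adjusted p = 0.28), although the organ difference in A. petraea was 0.01 ± 0.36. CYP51G2 had a difference of 0.75 ± 0.29 in A. petraea, close to that in A. halleri, with an adjusted p of 0.0731. CYP71B6 had 0.71 ± 0.30 (adjusted p = 0.0995, and 0.0287 with the replicate block). CYP78A9 had 0.07 ± 0.32 (adjusted p = 0.896). Without the root array with leaf markers, CYP51G2 was at 0.66 ± 0.31 (adjusted p = 0.131) and CYP71B6 at 0.84 ± 0.32 (adjusted p = 0.0581).

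With the printed labels no P450 gene was called between organs in either species, and 0% of all probe sets were. At an unadjusted p under 0.05 there were 0 P450 genes and 247 probe sets in A. halleri, and 2 genes and 2292 probe sets in A. petraea. The smallest p-values in A. halleri belonged to CYP71B27 (-0.29), CYP71B34 (0.21) and CYP71B28 (-0.40), all at an adjusted p of 1. In A. petraea they belonged to CYP71B6 (-0.92, adjusted p = 0.307), CYP71B37 (0.60, 0.35) and CYP71B35 (-0.71, 0.408). The species difference in the organ difference called no gene either, with the smallest p for CYP71B34 (0.43, adjusted p = 0.823), CYP71B37 (-0.58, 0.866) and CYP71B6 (0.77, 0.867). Arrays with leaf and with root markers stood together in 4 of the 8 printed groups, and the part of this in the counts was not tested.

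**Figure D3:**
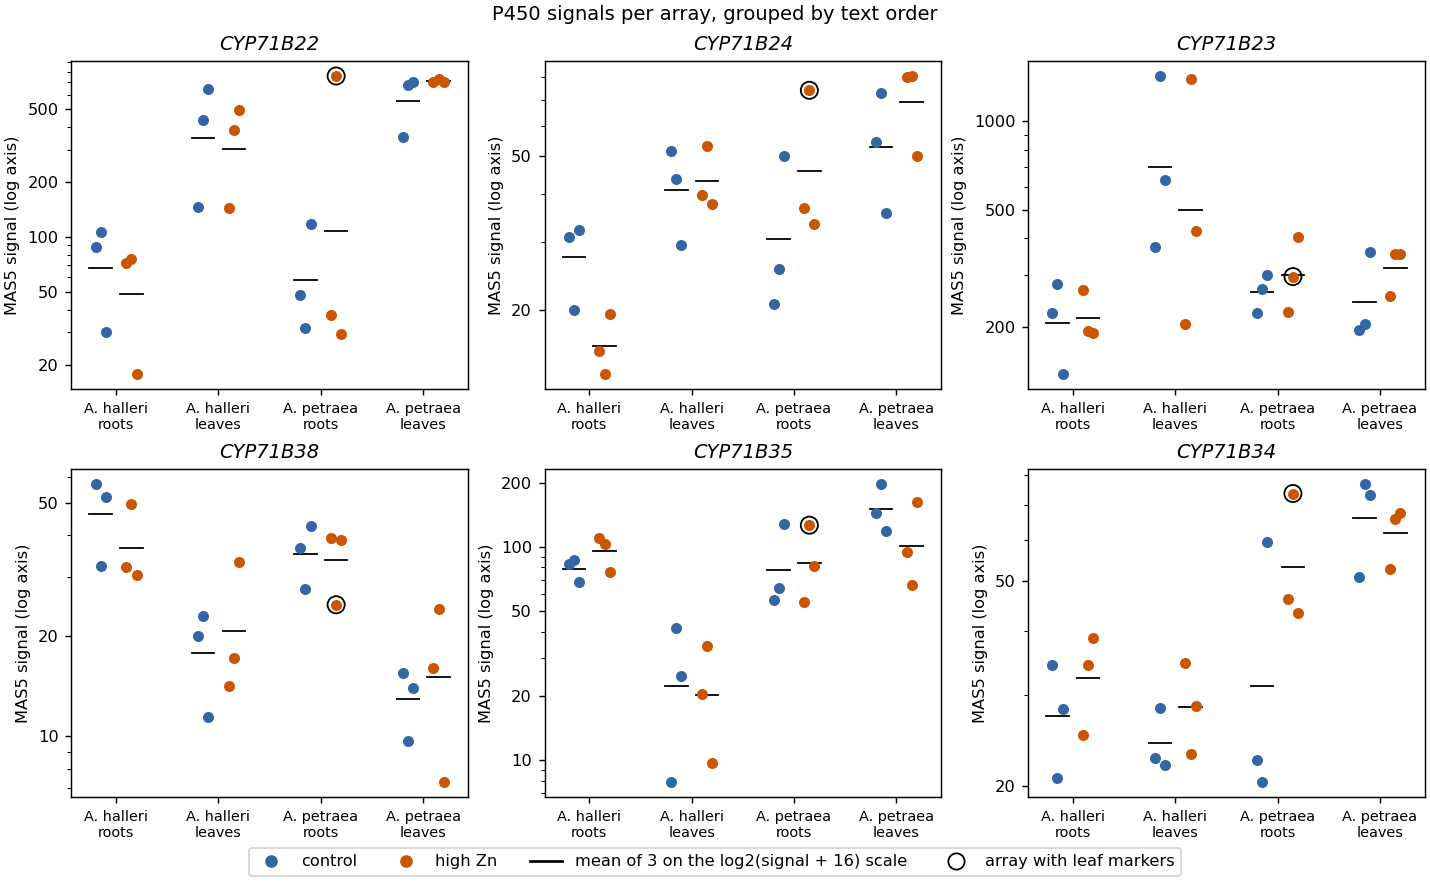
MAS5 signal (log axis) on each array for 6 P450 genes called in text order, with the arrays in text-order groups of 3, control in blue and high Zn in orange. Bars mark the mean of 3 arrays on the log2(signal + 16) scale. CYP71B35 is low on all 6 A. halleri leaf arrays, and the ringed root array with leaf markers lies at the level of the leaves for CYP71B22.

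Between the species, text order called 2 of the 12 genes in leaves, both lower in A. halleri, beside 6.23% of all probe sets and 3.24% lower in A. halleri. They were CYP71B35, at -1.91 ± 0.26 (A. halleri minus A. petraea, adjusted p = 7.1e-05), and CYP71B34, at -0.92 ± 0.19 (adjusted p = 0.00594). CYP71B34 had A. halleri leaf signals of 22.7, 28.3 and 22.0 in controls and 34.7, 23.1 and 28.6 at high Zn. In A. petraea leaves they were 50.9, 77.0 and 73.3 in controls and 52.6, 65.9 and 67.7 at high Zn. All 6 A. petraea leaf arrays lay above all 6 A. halleri leaf arrays for both genes, and 4.44% of all probe sets tested had leaf arrays that did not overlap between the species.

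A probe with the A. thaliana sequence may bind the transcript of 1 species less well. This and a difference in transcript level cannot be told apart here. The species difference in roots was 0.08 ± 0.26 for CYP71B35 (adjusted p = 0.896) and -0.32 ± 0.19 for CYP71B34 (adjusted p = 0.382). Without the root array with leaf markers it was 0.21 ± 0.27 for CYP71B35 and -0.22 ± 0.20 for CYP71B34. What lies behind the leaf differences was not tested. The species difference in the organ difference was not called for CYP71B34 (0.60 ± 0.28, adjusted p = 0.45). The other 10 genes tested were not called in leaves. CYP71B23 was higher in A. halleri by 1.04 ± 0.36 (adjusted p = 0.0993), with signals of 204.5 to 1426.9 against 194.5 to 358.1 in A. petraea. With the replicate block, which does not model the pairs, it was called, at 1.04 ± 0.32 (adjusted p = 0.0463). CYP71B22, at -0.91, had an adjusted p of 0.405. Over the 21 genes, tested or not, the median difference was -0.24, beside 0 over all probe sets and -0.01 over those tested.

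In roots no P450 gene was called between the species in text order, while 4.74% of all probe sets were. At an unadjusted p under 0.05 there were 2 of the 12 genes and 3441 probe sets. CYP71B6 had the smallest p, at -0.78 ± 0.30 (adjusted p = 0.147). Its signals were 83.5 to 152.1 in A. halleri roots and 145.1 to 419.1 in A. petraea roots, with an overlap of 1 A. halleri array. With the replicate block, which does not model the pairs, it was called, at -0.78 ± 0.23 (adjusted p = 0.0424). CYP71B24 followed at -0.52 ± 0.21 (adjusted p = 0.161) and CYP71B37 at 0.45 ± 0.25 (adjusted p = 0.326). Without the root array with leaf markers, CYP71B6 was at -0.91 ± 0.32, CYP71B24 at -0.38 ± 0.21 and CYP71B37 at 0.54 ± 0.27. No P450 gene was called there either, beside 3.51% of all probe sets.

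With the printed labels no P450 gene and 0% of probe sets were called between the species in either organ. In roots 2 P450 genes and 936 probe sets had an unadjusted p under 0.05, and in leaves 0 and 934. The smallest p-values in roots belonged to CYP71B34 (0.50, adjusted p = 0.682), CYP71B35 (0.95, 0.825) and CYP71B6 (0.60, 0.99). In leaves they belonged to CYP71B27 (0.31, 0.914), CYP71B22 (0.80, 0.937) and CYP71B37 (0.30, 0.942).

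For high zinc none of the 12 P450 genes passed the test in text order, in either organ of either species. The share of all probe sets called was 0% in A. halleri roots, A. halleri leaves and A. petraea roots and 0.00585%, or 1 probe set, in A. petraea leaves. At an unadjusted p under 0.05 there was 1 P450 gene, in A. petraea roots, beside 317, 96, 430 and 463 probe sets in the 4 comparisons. The standard errors of the 12 genes ran from 0.28 to 0.79, so small responses were not detectable with 3 arrays a side. The differences, high Zn minus control, lay between -0.74 and 0.27 in A. halleri roots and between -0.48 and 0.40 in A. halleri leaves. They lay between -0.04 and 0.80 in A. petraea roots and between -0.50 and 0.71 in A. petraea leaves. Without the root array with leaf markers, those in A. petraea roots lay between -0.60 (CYP71B22) and 0.63 (CYP71B37). There CYP71B22, CYP71B28 and CYP71B35 turned from positive to negative and CYP71B38 from negative to positive.

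In A. halleri roots CYP51G2 had the smallest p, with signals of 70.4, 62.8 and 88.9 in controls and 28.5, 43.4 and 41.4 at high Zn. The 2 sides did not overlap, and the difference was -0.74 ± 0.42 (adjusted p = 1). CYP71B24 did not overlap either, with 30.9, 20.0 and 32.2 against 15.6, 13.6 and 19.5, a difference of -0.43 ± 0.30. CYP71B38 followed at -0.24 ± 0.29. Non-overlap of 3 arrays against 3 was seen in 6.76% of all probe sets in this comparison.

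In A. halleri leaves the smallest p-values belonged to CYP51G2 (0.40 ± 0.42), CYP71B23 (-0.48 ± 0.52) and CYP71B34 (0.15 ± 0.28), all at an adjusted p of 1. CYP51G2 signals were 7.0, 13.7 and 37.1 in controls and 62.5, 23.5 and 10.8 at high Zn, and the sides overlapped. In A. petraea leaves they belonged to CYP71B28 (0.71 ± 0.52), CYP71B35 (-0.50 ± 0.37) and CYP71B6 (0.50 ± 0.43), at an adjusted p of 0.999.

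In A. petraea roots the unadjusted p under 0.05 was that of CYP71B37. Its signals were 29.8, 3.7 and 3.5 in controls and 24.7, 41.3 and 23.7 at high Zn, and the highest, 41.3, was from the array with leaf markers. The difference was 0.80 ± 0.36 (adjusted p = 1), and 0.63 ± 0.40 without that array. CYP71B34 (0.55 ± 0.28) and CYP71B24 (0.41 ± 0.30) followed, and without that array they were at 0.36 ± 0.30 and 0.13 ± 0.31.

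No P450 gene was called in text order for a species difference in the zinc response, and 0% of all probe sets were called in roots or leaves (358 and 260 at an unadjusted p under 0.05). The smallest p-values in roots, A. halleri response minus A. petraea response, belonged to CYP71B24 (-0.84 ± 0.42), CYP51G2 (-0.96 ± 0.59) and CYP71B37 (-0.81 ± 0.50). In leaves they belonged to CYP71B23 (-0.85 ± 0.73), CYP71B28 (-0.84 ± 0.73) and CYP71B35 (0.42 ± 0.52). All 6 had an adjusted p of 1. Without the root array with leaf markers, the root values were -0.56 ± 0.42 (CYP71B24), -0.78 ± 0.63 (CYP51G2) and -0.64 ± 0.53 (CYP71B37).

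In A. halleri leaves, the 3 text-order numbers differed more than the zinc levels for some P450 genes. CYP71B23 had signals of 374.5 and 204.5 for number 1, 1426.9 and 1388.6 for number 2, and 633.9 and 422.0 for number 3, control first. CYP71B28 had 33.8 and 35.3, then 188.6 and 142.3, then 111.7 and 107.1. CYP71B22 also kept the order of the 3 numbers at both zinc levels, with number 1 lowest. These 3 were the only ones of the 12 genes with the same order in A. halleri leaves, and 43.3% of all probe sets kept it there.

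Over the 4 sets of pairs, 13 of the 48 cases of a tested gene in a species and organ had all 3 changes of one sign, a share near that of all probe sets. In A. halleri roots there were 4 of 12 genes, beside 28.7% of all probe sets tested: CYP51G2 (-0.96, -0.41 and -0.87), CYP71B22 and CYP71B24 were lower at high Zn in each pair and CYP71B35 was higher. In A. halleri leaves there were 2 of 12, beside 25.1%, CYP71B23 (-0.82, -0.04 and -0.57) and CYP71B22 (-0.02, -0.18 and -0.38), both lower. In A. petraea roots CYP71B23, CYP71B6 and CYP78A9 were higher, 3 of 12 beside 22.3%, and number 2 there holds the array with leaf markers. In A. petraea leaves CYP71B28 (1.21, 0.48 and 0.44), CYP71B6 (1.17, 0.25 and 0.06), CYP71B22 (0.96, 0.11 and 0.01) and CYP71B24 were higher, 4 of 12 beside 31.4%. CYP71B22 was thus lower in each pair of A. halleri leaves and higher in each pair of A. petraea leaves. The smallest of these changes, -0.02 and 0.01, were near 0, and the difference was not called in the fits. A fit with the 12 pairs as a block, added after the data were seen, called no P450 gene for zinc in any comparison, and 5 probe sets in A. petraea leaves and 0 in the others.

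**Figure D4:**
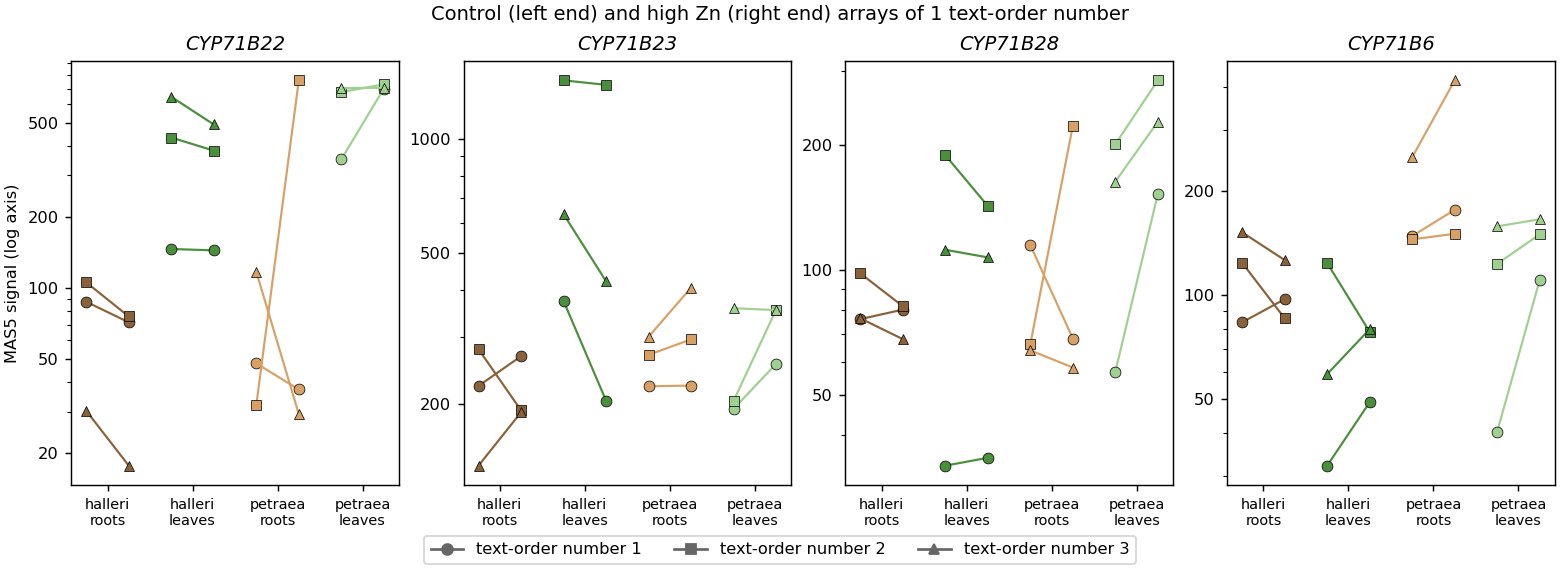
MAS5 signal (log axis) of 4 P450 genes, with a line from the control array (left end) to the high Zn array (right end) of the same text-order number in each species and organ. CYP71B23 and CYP71B28 differ more between numbers than between zinc levels in A. halleri leaves, and the steep A. petraea root line of CYP71B22 ends at the array with leaf markers, at 758.3.

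With the printed labels, 3 P450 genes were called for zinc, all lower in the arrays labelled A. halleri high Zn leaves than in those labelled A. halleri control leaves, beside 17.4% of all probe sets (6.28% lower and 11.1% higher). CYP71B22 had 699.1, 729.2 and 705.3 in the control arrays and 105.7, 30.2 and 71.6 in the high Zn arrays, a difference of -3.20 ± 0.95 (adjusted p = 0.0305). CYP71B24 had 80.2, 80.7 and 50.2 against 20.0, 32.2 and 15.6, at -1.16 ± 0.33 (adjusted p = 0.0269). CYP71B34 had 52.6, 65.9 and 67.7 against 20.8, 28.2 and 25.1, at -0.94 ± 0.23 (adjusted p = 0.0173). High Zn was the higher side in 63.9% of the calls over all probe sets, and in 47.5% with quantile normalization. The sides did not overlap for any of the 3 genes, nor for 47.3% of all probe sets tested.

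The organ markers moved with this comparison. Leaf minus root was 4.97 to 5.27 on the 3 arrays labelled control and -3.51 to -0.90 on the 3 labelled high Zn, so zinc and tissue cannot be told apart there. In text order the first 3 arrays are A. petraea high Zn leaves and the other 3 are A. halleri roots. Leaving out any 1 of the 6 arrays ended the call of CYP71B22 (adjusted p of 0.0585 to 0.101), with a difference of -3.51 to -2.82. CYP71B24 lost its call without control 1 or 2 or high Zn 1 or 3 (0.0714 to 0.0851), with a difference of -1.12 to -1.03, and CYP71B34 without control 2 or 3 or high Zn 1 (0.0516 to 0.0646), with a difference of -0.9 to -0.87.

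CYP71B34 was also the only P450 gene called with the printed labels for a species difference in the leaf zinc response, -1.92 ± 0.33 (adjusted p = 0.0115), beside 0.357% of all probe sets and 0.269% called in that direction. In arrays labelled A. petraea leaves its signals were 23.1, 22.5 and 20.4 in controls and 59.4, 46.0 and 73.7 at high Zn, the reverse of its direction in A. halleri. The zinc levels did not overlap in either species, and 8.53% of all probe sets did not overlap between zinc levels in arrays labelled A. petraea leaves. The A. petraea response alone, 0.98, had an adjusted p of 1, and the call of the species difference was kept without any one of the 24 arrays (-2.05 to -1.79). In text order the same 6 A. petraea arrays are 1 A. halleri leaf array and 5 A. petraea root arrays. These root arrays include the one with leaf markers, which gave the highest signal, 73.7.

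The other printed zinc comparisons called no P450 gene. In A. halleri roots, where 0.0701% of probe sets were called, 4 genes and 1724 probe sets had an unadjusted p under 0.05, and the smallest belonged to CYP71B38 (-1.01, adjusted p = 0.388), CYP71B34 (0.69, 0.416) and CYP71B35 (1.40, 0.46). In A. petraea roots, with 0% called, there were 1 gene and 1189 probe sets, led by CYP71B22 (2.19), CYP71B23 (1.21) and CYP71B38 (-0.59), all at an adjusted p of 0.658. In A. petraea leaves, with 0% called, there were 2 genes and 659 probe sets, led by CYP71B34 (0.98), CYP71B27 (0.97) and CYP51G2 (0.96), all at an adjusted p of 1. The species difference in the root response called 0%, with CYP71B35 (1.94), CYP71B34 (0.79) and CYP71B23 (-1.66) first and an adjusted p of 1 for each.

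By family, 10 of the 12 genes tested were CYP71B genes, and every P450 call was of a CYP71B gene except that of CYP51G2 between the organs of A. halleri. Within CYP71B the directions were not shared: in text order CYP71B22, CYP71B23 and CYP71B24 were higher in A. halleri leaves and CYP71B35 and CYP71B38 in its roots. Similar sequences within the subfamily may let a probe set take up transcripts of a paralogue, and this was not tested. CYP78A9 was called in no comparison under either grouping. CYP79A2 and CYP84A4 did not pass the filter, with signals of 2.2 to 27.5 and 1 to 24.8 over the 24 arrays, and CYP79A2 was at 3 to 3.6 in text-order A. halleri leaves and 4.1 to 15.6 in its roots.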

How the data were processed

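Per the submitters' processing notes, the authors computed MAS5 signals. The deposited signal is 1 linear intensity for each probe set, and the sources used here give neither version nor settings of MAS5. In the values, the mean signal with 2% trimmed at each end was 100 on every array, so signals appear scaled to a common trimmed mean. Depth does not apply to arrays, and 3 arrays a group limit the precision.

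Signals were taken as log2(signal + 16), which understates changes of dim genes, and the lowest 25% of probe sets by mean over 24 arrays were left out, leaving 17107. limma 3.58.1 in R 4.3.3 fitted 8 group means (16 residual degrees of freedom, eBayes with trend and robust) once per grouping, with two-sided tests and Benjamini-Hochberg adjustment over all 17107. The script was tested on simulated data. Each grouping had 11 comparisons. The titles of 2 A. halleri control root arrays print replicate 1, and the later serial is called replicate 3.

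Genes, lists, groupings and markers were chosen with earlier results of these data known. Named genes were those in role lists, up to 10 called genes each way per comparison, the brightest gene of families with 3 or more members, and otherwise the 3 with the smallest p. Another 7 probe sets with CYP in a symbol were not members. They were a pseudogene, names of another form, 2 probe sets of several genes, and CYP71B26, which was left out from the start. In text order, deviations from the group means of control and high Zn arrays with the same number correlated at 0.20 to 0.61 (A. halleri roots), 0.65 to 0.81 (A. halleri leaves), 0.28 to 0.57 (A. petraea leaves) and -0.05 to 0.51 (A. petraea roots). The main fits, those of zinc responses included, did not take this pairing into account. Alternatives were pseudocounts of 1 and 64, no filter, quantile normalization, a replicate block and leaving out each array. The replicate block was the array number, shared by all species and organs, and did not model the pairs. No sequence is shown, because the sequences of these genes were not used here.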

Additional observations from a re-analysis of the deposited data

Results flagged for a closer look

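For a pair of P450 genes, a test of a difference between the species passed. The organ difference of CYP71B35, roots minus leaves, was larger in A. halleri than in A. petraea by 1.99 in text order (adjusted p = 0.00999 in limma). Its signals were 7.9 to 41.8 on the A. halleri leaf arrays and 55.4 or more on every other array. With the printed labels, the leaf zinc response of CYP71B34 differed between the species by -1.92 (adjusted p = 0.0115). In the 4 groups behind that value the organ markers matched the label on 3 of 3 arrays labelled A. halleri control leaves, 0 of 3 labelled A. halleri high Zn leaves, and 1 of 3 in each of the A. petraea leaf groups.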

How the results depend on the processing

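Of 85 results under 29 to 30 alternatives, most kept their direction and side of the threshold: 2450 values did, and 39 did not. In text order the count of P450 genes called between A. petraea organs was 4 in place of 2 under quantile normalization (CYP71B24 and CYP71B34 added) and 4 with a replicate block (CYP71B28 and CYP71B6 added). Leaving out 1 array gave 2 to 5, with 5 without high Zn roots 2 and 4 without control roots 3. The replicate block also called CYP71B6 between species in roots, 1 gene in place of 0 (-0.78, adjusted p = 0.0424). It added CYP71B23 between species in leaves (1.04, adjusted p = 0.0463) and changed no other count by over 1.5 times. In A. halleri organs the count of 6 became 4 under quantile normalization, where CYP51G2 (0.61, adjusted p = 0.103) and CYP71B38 (0.49, adjusted p = 0.0692) were not called, 7 with the block, 8 without the filter and 4 to 7 without 1 array. The 3 printed zinc calls in A. halleri leaves became 0 to 3 without 1 array. In text-order A. halleri leaves, the zinc difference of CYP51G2 ranged from -0.02 to 0.75 and that of CYP71B23 from -1.2 to 0.13 without 1 array. They turned sign without high Zn leaves 1 (CYP51G2 to -0.02, CYP71B23 to 0.13) and without control leaves 2 (CYP71B23 to 0.03). The causes were not tested. Pseudocounts of 1 and 64 moved no count by over 1.5 times but set the size of differences of dim genes. In text order CYP71B35 between A. halleri organs was 2.08 and 0.81, CYP71B24 -0.96 and -0.31, CYP71B38 between A. petraea organs 1.28 and 0.34, and the species difference of CYP71B35 in the organ difference 2.69 and 1.18. With printed labels the deviations of same-numbered arrays correlated at -0.5 to 0.6, and every pair was over 0.1 only in A. petraea roots (0.11 to 0.38). Signals near background limit the 9 dimmest genes.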
